A study of Mus musculus with 20 samples.

Results

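The transcription factors that set up and maintain the epidermal lineage were followed here across 5 populations sorted from mouse dorsal epidermis. The members were the rows of the deposited table named *Trp63*, *Klf4*, *Klf5*, *Grhl1*, *Grhl3*, *Ovol1*, *Tfap2a*, *Tfap2c*, *Cebpa* and *Cebpb*, which are 10 of 53380 genes, and all 10 passed the filter on low values. The measurement was bulk RNA-seq of 20 libraries, given as normalized counts, that is, reads per gene divided by a size factor of the library. Integrin-α6+ Sca1+ keratinocytes were sorted into Thy1hi cells (4 libraries) and Thy1- cells (4 libraries), HFSCs (hair follicle stem cells) were α6+ Sca1- CD34+ (4 libraries), and DETCs, the T cells that live in the epidermis, were α6- Sca1low Thy1+ (5 libraries). YFP cells (3 libraries) were Thy1+ YFP+ cells of mice in which a *Thy1* promoter drives an inducible Cre recombinase and recombination switches on YFP.

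The labels give the genotype Thy1.2CreERT2-Rosa26-EYFP and no treatment for every sample, and an age that rises by a week from sample to sample, from 8 to 27 weeks. The methods instead describe young adult wild-type mice for the sorts without YFP, and induced transgenic mice for the YFP sort. The cell type label of the YFP cells names them Sca1 negative, and their titles do not. The paper describes pooled mice in its sorting scheme and single mice in its expression plots, so p-values here measure the spread between samples, which may in part be technical. Libraries held 7781256 to 12982393 reads on genes, 13.1% to 41.5% of them on the ribosomal RNA gene *Rn45s*. The sorts were checked against their markers: the summed follicle markers reached 5516 to 6352 in HFSCs and at most 1312 elsewhere, and 6 T cell markers other than *Thy1* reached 13237 or more in DETCs and at most 289.8 elsewhere, and the summed basal keratins were lowest in DETCs. HFSC replicate 4 stood apart from the other HFSC libraries (*Rn45s* 13.1% of reads, against 38.3% to 41.5%), and results that rest on it are given with and without it. In bulk samples, fewer cells of a type and less RNA per cell cannot be told apart.

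p63, encoded by *Trp63*, is the master regulator of stratified epithelia and keeps basal cells in the epidermal lineage. The AP-2 factors (*Tfap2a*, *Tfap2c*) act beside it in early keratinocytes, KLF5 is associated with proliferating basal cells, and KLF4, the grainyhead factors (*Grhl1*, *Grhl3*), OVOL1 and the C/EBP factors (*Cebpa*, *Cebpb*) act as cells leave the basal layer and build the barrier. OVOL1 and C/EBPα restrain proliferation as cells differentiate.

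All 10 factors were read in every library, from 79.9 normalized counts of *Ovol1* in HFSC replicate 4 upwards. Levels of different genes were ranked only per kilobase of exon, which was known for 9 members and not for *Ovol1*. On that scale *Klf4* had the highest mean in every population (1421 to 1659 normalized counts per kilobase). In Thy1hi cells *Klf5* followed with 967, *Cebpb* with 814 and *Trp63* with 567, and *Cebpa*, *Tfap2c*, *Grhl1*, *Grhl3* and *Tfap2a* lay between 225 and 307.

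On the mouse build mm10 (GRCm38) the members lie on 8 chromosomes. *Trp63* (ENSMUSG00000022510.14) spans chromosome 16 from 25683763 to 25892102, *Tfap2a* (ENSMUSG00000021359.16) chromosome 13 from 40715302 to 40738376 and *Tfap2c* (ENSMUSG00000028640.11) chromosome 2 from 172549593 to 172558622. *Klf5* (ENSMUSG00000005148.8) spans chromosome 14 from 99298691 to 99315036 and *Klf4* (ENSMUSG00000003032.8) chromosome 4 from 55527143 to 55532466. *Grhl1* (ENSMUSG00000020656.16) spans chromosome 12 from 24572283 to 24617391 and *Grhl3* (ENSMUSG00000037188.7) chromosome 4 from 135541888 to 135573630. *Ovol1* (ENSMUSG00000024922.1) spans chromosome 19 from 5549137 to 5560575, *Cebpa* (ENSMUSG00000034957.10) chromosome 7 from 35119293 to 35121928 and *Cebpb* (ENSMUSG00000056501.3) chromosome 2 from 167688915 to 167690418.

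**Figure D1:**
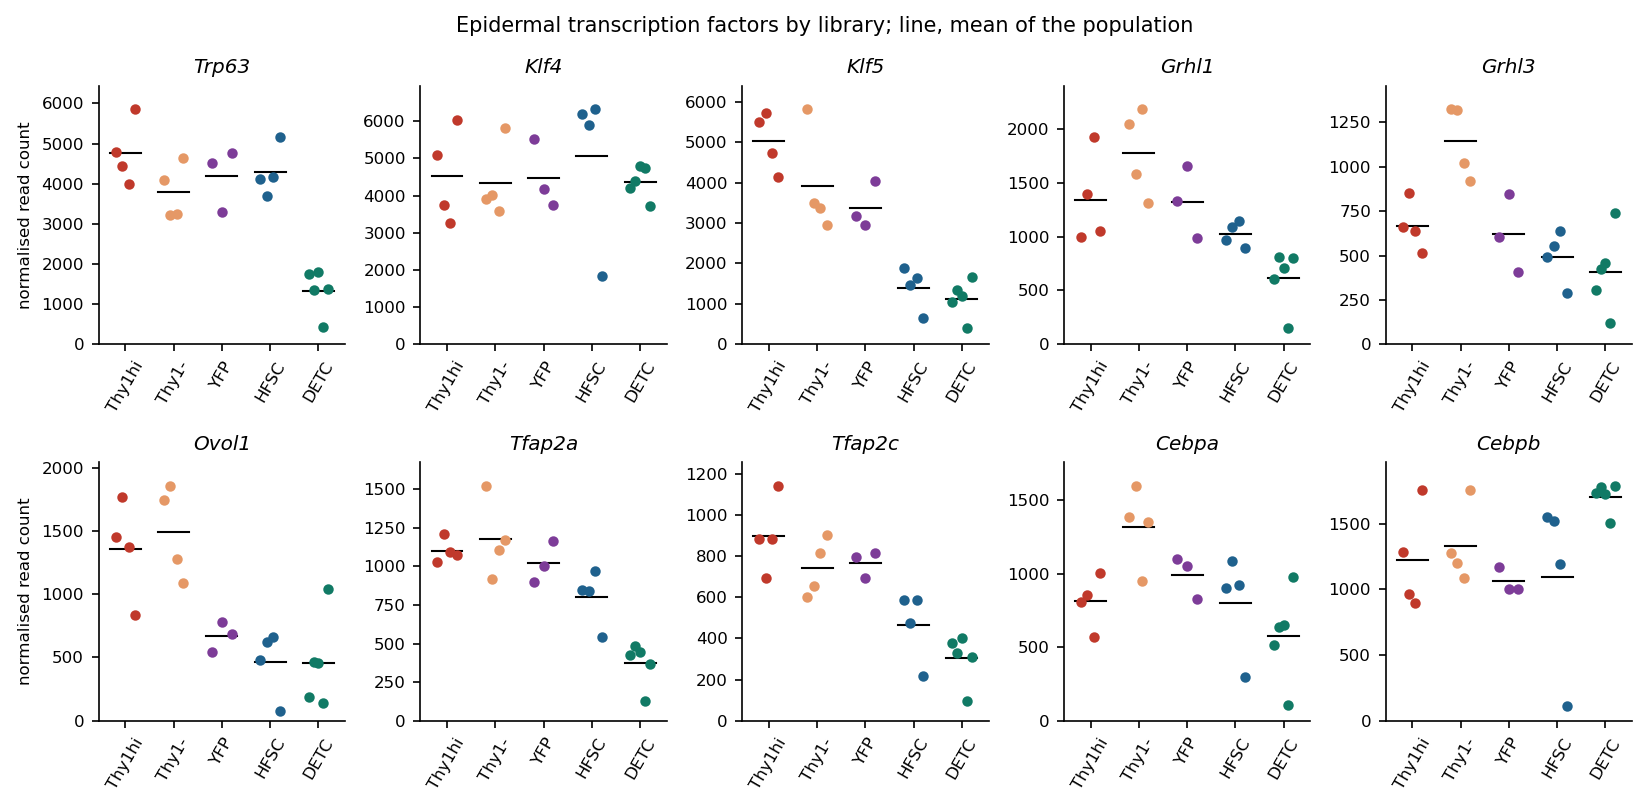
Normalized read count (linear axis from 0) of each of the 10 factors in each of the 20 libraries, one point per library and one line per population mean. *Trp63* and *Tfap2a* are lowest in DETCs, and *Klf5* is low in HFSCs and DETCs. *Ovol1* is highest in the Thy1hi and Thy1- cells, and *Klf4* has nearly the same mean in all 5 populations. HFSC replicate 4 is the lowest HFSC point of every factor except *Trp63*.

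The order of the populations differed between the factors. A step in that order was called where the limma test, described with the comparisons, gave an adjusted p under 0.05, which held for 39.7% of all genes between HFSCs and DETCs, 34.1% between Thy1- cells and DETCs and 11.6% between YFP cells and HFSCs. For *Trp63* the order of means was Thy1hi, HFSC, YFP, Thy1- and DETC, and of the 4 steps between neighbours only the last was called (log2 difference 1.64 from Thy1- cells to DETCs, limma adjusted p 0.000228). For *Tfap2a* (Thy1-, Thy1hi, YFP, HFSC, DETC) the called step was also the last, from HFSCs to DETCs (1.21, limma adjusted p 0.00201). *Grhl1* had the same order, and its last step lay close to the threshold (0.93, limma adjusted p 0.0451). It lost the call under 18 of 35 other settings, among them edgeR (0.0809), DESeq2 (0.069), the fit of these populations alone (0.119) and the fits without HFSC replicate 4 (0.0517) or DETC replicate a (0.48, limma adjusted p 0.0871), while the steps of *Trp63* and *Tfap2a* were called under every setting run. HFSC and DETC libraries of the same number, 1 to 3, had r 0.17 to 0.333 around their means. Differently numbered ones had r −0.318 to 0.371, so the ranges overlap. With that number as a block both *Tfap2a* (0.97, limma adjusted p 0.000224) and *Grhl1* (0.59, limma adjusted p 0.00252) were called over the 6 libraries numbered 1 to 3. They were also called over the same libraries without the block (limma adjusted p 0.000315 and 0.0103). For *Klf5* the order was Thy1hi, Thy1-, YFP, HFSC and DETC, and the called step was that from YFP cells to HFSCs (1.37, limma adjusted p 0.0256). That call was lost without HFSC replicate 4 (1.03, limma adjusted p 0.073), without YFP replicate 1 (0.0668) or 3 (0.127) and in the fit of these populations alone (0.0679), which left no member called between YFP cells and HFSCs. The fit of these populations alone called 5.45% of all genes there, and the shares in the other fits are not given here. No step between neighbours was called for *Klf4*, *Grhl3*, *Ovol1*, *Tfap2c*, *Cebpa* or *Cebpb*. *Cebpb* was the member with its highest mean in DETCs.

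Thy1hi and Thy1- cells are both basal keratinocyte sorts, and their comparison asks which genes differ with Thy1. *Grhl3*, which takes part in barrier formation and wound closure, had 662, 851, 639.7 and 515 normalized counts in Thy1hi replicates 1 to 4 and 1323, 1321, 1023 and 921 in Thy1- replicates 1 to 4. All Thy1hi libraries lay below all Thy1- libraries, and this was the only member whose libraries did not overlap, beside 6.77% of the 17204 genes tested. *Cebpa* had 806, 856, 572 and 1007 in Thy1hi and 1383, 1596, 948 and 1353 in Thy1- cells. Its ranges overlapped, since the highest Thy1hi library lay above the lowest Thy1- library, but within each replicate number the Thy1hi library was the lower one. The means were 667 ± 139 against 1147 ± 206 for *Grhl3* and 810.3 ± 180.3 against 1320.0 ± 270.3 for *Cebpa* (SD, n = 4 each).

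Differences were tested with limma on log2(normalized count + 1) with all 20 libraries in one fit and p-values adjusted by the Benjamini-Hochberg method over all genes tested. None of the 10 members was called (0 at an unadjusted p under 0.05), beside 0.337% of all genes. By edgeR and DESeq2 0 members were called too, beside 0.314% and 1.22% of all genes. A Thy1hi and a Thy1- library with the same number moved together around the means of their sorts (r 0.293 to 0.716). Differently numbered ones had r −0.651 to 0.514, so these ranges overlap and do not by themselves establish the pairs. The number was also used as a block in a fit of these 8 libraries, and the calls with the block rest on that pairing. With the block 2 of 10 members were called, both lower in Thy1hi cells, beside 6.61% of all genes called and 3.19% called lower: *Grhl3* fell by 0.79 on the log2 scale (1.72-fold lower in Thy1hi cells, standard error 0.10, limma adjusted p 0.00197, without the block 0.712) and *Cebpa* fell by 0.71 (1.63-fold lower, standard error 0.11, limma adjusted p 0.00374, without the block 0.924). The exact two-sided permutation p, which disregards the pairs, was 0.0286 for *Grhl3*, the smallest that 4 against 4 libraries allow, and 0.0571 for *Cebpa*. Both calls remained when each replicate number was left out in turn (limma adjusted p at most 0.0172 and 0.0329) and in a blocked edgeR fit (0.000157 and 0.000494). In a block over all 5 populations neither was called (0.061 and 0.353).

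The other members differed less. *Trp63* was higher in the Thy1hi library of all 4 pairs, by 0.22 to 0.47, and missed the blocked threshold (0.33, limma adjusted p 0.0833), and *Tfap2c* was also higher in all 4 pairs (0.27, limma adjusted p 0.189). *Grhl1*, the other grainyhead factor, was lower in all 4 pairs, by 0.18 to 1.04 (−0.43, limma adjusted p 0.119). A direction shared by all 4 pairs was found at 27.1% of all genes tested and at 5 of the 10 members. *Klf5* was higher in 3 pairs and lower in the first (mean 0.40, blocked limma adjusted p 0.111), and it was called only without replicate number 1 (0.57, limma adjusted p 0.0227). *Klf4*, *Ovol1*, *Tfap2a* and *Cebpb* had mean differences between −0.16 and 0.05 with pairs in both directions. The sign of *Klf4* turned when libraries were rescaled to the same total (−0.08) or quantile normalized (−0.04).

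**Figure D2:**
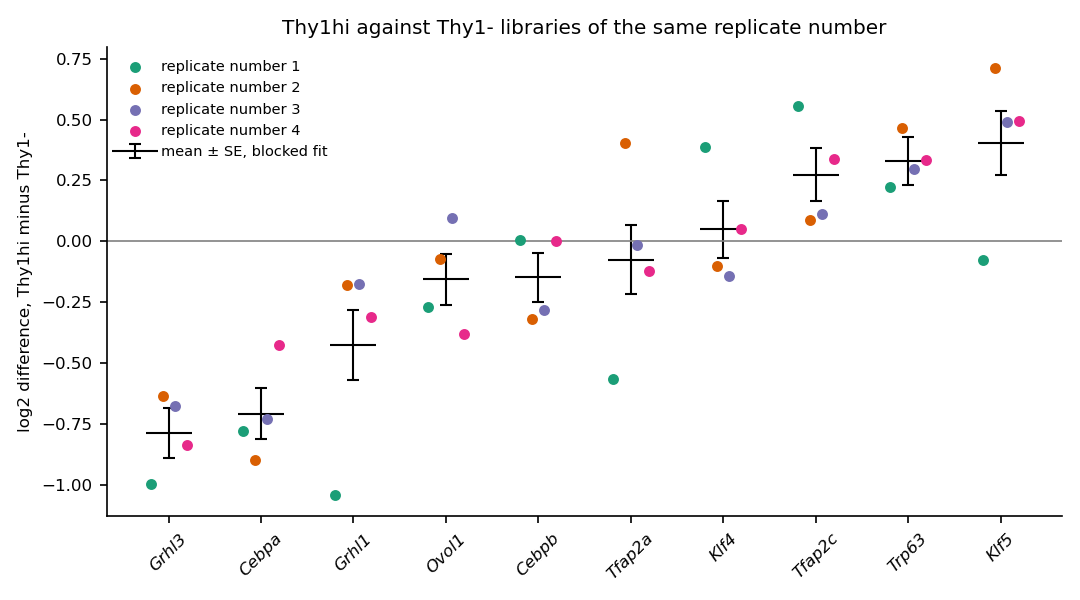
Log2 difference (Thy1hi minus Thy1-, log2 of normalized count + 1) of each factor in the 4 replicate numbers, one coloured point per number, with the mean and standard error of the blocked limma fit as black bars. For *Grhl3* the 4 points lie between −1.0 and −0.63 and for *Cebpa* between −0.90 and −0.43, while those of *Trp63* lie between 0.22 and 0.47 and those of *Klf4*, *Ovol1*, *Tfap2a* and *Cebpb* fall on both sides of 0.

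The promoters of *Grhl3* and *Cebpa* are shown because these are the members called together between Thy1hi and Thy1- cells, and those of *Klf4* and *Cebpb* because these are the members with the smallest and the only negative difference between Thy1hi cells and DETCs. The sequences are the 250 bases before the start of transcription in RefSeq (GRCm38.p6), 5′ to 3′ on the strand of the gene, and capitals mark the letters CCNCNCCC on either strand, the core of the CACCC and GC boxes that KLF proteins bind. *Grhl3* lies on the minus strand at chromosome 4 from 135573633 to 135573882, *Cebpa* on the plus strand at chromosome 7 from 35119043 to 35119292, *Klf4* on the minus strand at chromosome 4 from 55532476 to 55532725 and *Cebpb* on the plus strand at chromosome 2 from 167688665 to 167688914.
Grhl3: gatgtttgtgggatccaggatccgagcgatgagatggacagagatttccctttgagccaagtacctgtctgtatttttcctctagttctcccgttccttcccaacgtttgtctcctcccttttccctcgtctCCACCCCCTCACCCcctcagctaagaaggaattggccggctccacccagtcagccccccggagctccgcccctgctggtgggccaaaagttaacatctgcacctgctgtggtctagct
Cebpa: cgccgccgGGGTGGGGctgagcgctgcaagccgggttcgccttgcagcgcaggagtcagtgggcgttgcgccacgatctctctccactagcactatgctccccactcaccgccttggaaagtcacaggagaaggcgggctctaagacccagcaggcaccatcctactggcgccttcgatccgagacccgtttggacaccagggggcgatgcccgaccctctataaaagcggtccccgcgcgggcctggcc
Klf4: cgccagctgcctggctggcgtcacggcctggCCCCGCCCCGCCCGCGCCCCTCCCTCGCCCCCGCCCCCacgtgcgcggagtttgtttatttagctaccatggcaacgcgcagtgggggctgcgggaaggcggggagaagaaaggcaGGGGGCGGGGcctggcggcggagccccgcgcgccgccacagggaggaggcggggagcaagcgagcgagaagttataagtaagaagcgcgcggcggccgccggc
Cebpb: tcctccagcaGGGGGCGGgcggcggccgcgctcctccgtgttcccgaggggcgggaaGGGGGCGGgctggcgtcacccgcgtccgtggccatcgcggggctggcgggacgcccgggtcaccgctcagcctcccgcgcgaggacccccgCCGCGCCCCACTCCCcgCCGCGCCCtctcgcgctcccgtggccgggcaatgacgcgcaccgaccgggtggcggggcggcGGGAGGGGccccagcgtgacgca
The letters were matched 2 times in *Grhl3* (56% G and C), 1 time in *Cebpa* (66.4%), 9 times in *Klf4* (74%) and 6 times in *Cebpb* (81.6%), where matches may overlap each other and the GCCNNNGGC matches below. Windows were given for 6 members, 8 windows in all. These letters were found in 6 of the 8 windows, beside 45.9% of 32851 mouse promoter windows of the same length. Each of the 6 members had at least 1 such window. The AP-2 letters GCCNNNGGC were found in 2 of the 8 windows, for *Grhl1* and *Klf4* (13.7% of all windows). The TATA box TATAAA was found in 1 of the 8, for *Cebpa* (12.4%). The grainyhead letters AACCGGTT (0.116%) and the C/EBP letters TTGCNNAA (9.56%) were found for none of the 6. These are matches of letters and were not tested for binding.

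Around *Grhl3* and *Cebpa*, other genes of the epidermis also differed between the Thy1hi and Thy1- cells. Of 22 other epidermal transcription factors, *Runx1* was called without the block (126 ± 9.84 in Thy1hi and 353 ± 55.8 in Thy1- cells, log2 difference −1.47, limma adjusted p 0.00414). With the block 3 were called higher and 4 lower (median of the list −0.02, beside −0.02 over all genes). The higher ones were *Bnc1* (0.85), *Satb1* (0.69) and *Maf* (0.55), and the 3 lowest *Runx1* (−1.47), *Prdm1* (−0.92), which encodes BLIMP1, a repressor active in terminal differentiation and sebaceous cells, and *Ehf* (−0.60), an epithelial ETS factor. Of the 20 family relatives tested out of 26, none was called without the block, and with it *Klf9* was higher (0.49, limma adjusted p 0.0142) and *Klf15* lower (−1.18, limma adjusted p 0.0457).

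The structural genes of both ends of the lineage moved with them. Without the block no gene of either list was called. With the block 8 of 10 basal keratinocyte genes were called higher in Thy1hi cells (median 0.83), among them *Krt14* (1.11), *Krt5* (1.11) and *Itga3* (0.88), which encode the basal keratins and an integrin chain. Of 18 differentiation genes tested, 16 were called lower (median −1.22), led by *Cnfn* (−1.54), *Dsc1* (−1.51) and *Krt10* (−1.42), and 1 higher, the transglutaminase gene *Tgm3* (1.76). The summed differentiation genes ran from 12969 to 37463 in Thy1hi and from 36481 to 55428 in Thy1- libraries. Markers of other cells moved as well: 5 of 5 Langerhans cell markers had a lower mean in Thy1hi cells (summed 523 to 1275 against 962 to 1956, 4 called lower with the block), 5 of 6 fibroblast markers a higher one (186 to 1946 against 123 to 215, 4 called higher with the block), 5 of 5 follicle markers a lower one (564 to 1009 against 815 to 1312, 1 called lower with the block) and none of 5 melanocyte markers a higher one (35.3 to 83.4 against 56.0 to 115, 0 of 4 tested called with the block), and *Rn45s* ran from 20.6% to 37.0% against 18.6% to 37.1%. Of 6 T cell markers other than *Thy1*, 5 had a higher mean in Thy1hi cells (summed 164 to 290 against 142 to 231). Among them *Cd3e* was called higher with the block (1.14, limma adjusted p 0.0464). The part of these markers and of *Rn45s* in the difference of *Grhl3* and *Cebpa* was not tested.

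HFSCs belong to another compartment of the skin, and both interfollicular sorts were compared with them. *Klf5* stood at 1882, 1454, 1629 and 639.7 normalized counts in HFSC replicates 1 to 4, at 5506, 5719, 4737 and 4153 in Thy1hi and at 5813, 3495, 3369 and 2948 in Thy1- replicates 1 to 4. Every Thy1hi and every Thy1- library lay above every HFSC library. *Ovol1* had 480.2, 622, 665 and 79.9 in HFSCs, 1451, 1765, 1369 and 834 in Thy1hi and 1746, 1855, 1281 and 1088 in Thy1- cells. Here too the populations did not overlap, and HFSC replicate 4 lay far below the other HFSC libraries.

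In Thy1hi cells 2 of 10 members were called higher than in HFSCs and none lower, beside 6.51% of all genes called higher and 13.4% called in either direction. *Klf5* was 3.84-fold higher (log2 difference 1.94, standard error 0.36, limma adjusted p 0.00101, exact permutation p 0.0286) and *Ovol1* 3.67-fold higher (1.88, standard error 0.57, limma adjusted p 0.0323). In Thy1- cells the same 2 members were called higher, beside 2.56% of all genes called higher and 6.08% in either direction: *Klf5* 2.90-fold (1.54, limma adjusted p 0.0135) and *Ovol1* 4.09-fold (2.03, limma adjusted p 0.037). These comparisons share the HFSC libraries. The median difference of the 10 members was 0.48 for Thy1hi and 0.78 for Thy1- cells, beside 0.02 and 0.04 over all genes. Without HFSC replicate 4 the medians of the members were 0.26 and 0.42. The members with a positive difference were then 7 and 7, against 9 and 8 over all libraries.

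Without HFSC replicate 4, *Klf5* kept both calls (1.60, limma adjusted p 0.0036, and 1.19, limma adjusted p 0.0405), and *Ovol1* lost both (1.16, limma adjusted p 0.108, and 1.32, limma adjusted p 0.0911), which left 1 of 10 members called in each comparison. *Ovol1* also lost the call against Thy1hi cells without Thy1hi replicate 1, 2 or 3 (limma adjusted p 0.0701 to 0.0901), and against Thy1- cells without HFSC replicate 1 or Thy1- replicate 1, 2 or 3 (0.0525 to 0.111). *Klf5* lost its call between Thy1- cells and HFSCs without Thy1- replicate 1 (0.0665), which left no member called there. For these fits the shares of all genes called are not given here, so the counts of members are not set against them.

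The remaining members were not called against HFSCs. *Tfap2c* had 586, 477, 588 and 219 in HFSCs and 884, 695, 882 and 1142 in Thy1hi cells, so that all Thy1hi libraries were higher (1.02, limma adjusted p 0.0658). It was called without DETC replicate a, a library that enters only through the shared spread (limma adjusted p 0.00639). Without HFSC replicate 4 its difference fell to 0.69 (limma adjusted p 0.204). *Grhl3* had 489, 552, 638 and 286 in HFSCs and was 2.40-fold higher in Thy1- cells with no overlap (1.26, limma adjusted p 0.055). Without HFSC replicate 4 that difference was 1.02 (limma adjusted p 0.132). Without DETC replicate a 3 further members were called higher in Thy1- cells than in HFSCs, *Grhl3* (limma adjusted p 0.00689), *Grhl1* (0.0264) and *Tfap2a* (0.0485), so that 5 of 10 were called. The share of all genes called in that fit is not given here, so this count is not set against it. Of the 22 other epidermal factors, 5 were called higher and 4 lower in that fit, against 3 and 2 over all libraries. The family relatives stayed at 2 higher and 1 lower. In all, 4 members lay apart from HFSCs in Thy1hi cells (19.3% of all genes) and 5 in Thy1- cells (13.6%). *Klf4* (−0.04), *Cebpa* (0.14) and *Trp63* (0.15) differed least in Thy1hi cells. For *Klf4* that closeness rests on a single library: HFSC values were 6185, 5893, 6317 and 1839, and without replicate 4 the difference moved to −0.48 (limma adjusted p 0.155). *Cebpb* showed the same pattern in HFSCs, with 1551, 1518, 1189.9 and 115, and its difference turned from 0.65 to −0.26 in Thy1hi and from 0.79 to −0.11 in Thy1- cells without replicate 4. The difference of *Cebpa* in Thy1hi cells turned from 0.14 to −0.28.

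**Figure D3:**
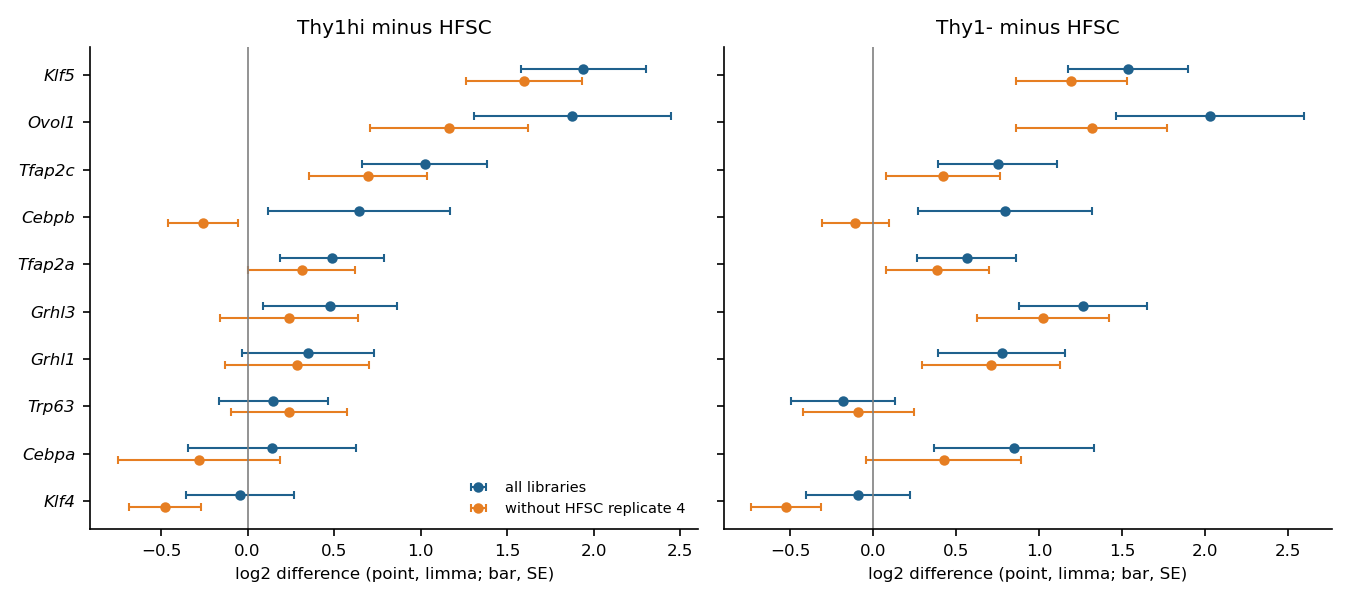
Log2 difference from HFSCs of each factor in Thy1hi cells (left) and Thy1- cells (right), with standard errors from limma, over all libraries (blue) and without HFSC replicate 4 (orange). *Klf5* stays at 1.60 and 1.19 without that library and *Ovol1* at 1.16 and 1.32, while *Cebpb* crosses 0 in both panels.

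Among the other epidermal factors, 4 of 22 were called higher and 3 lower in Thy1hi cells than in HFSCs (3 and 4 without HFSC replicate 4), and 3 were called higher and 2 lower in Thy1- cells (1 and 3 without it). Among those higher in Thy1hi cells were *Gata3* (1.44, limma adjusted p 0.000342) and *Satb1* (1.20, 0.00125), and the 3 lower ones were *Runx1* (−2.33, 5.29e-07), *Dlx3* (−2.0, 0.0433) and *Barx2* (−1.62, 0.00592). In Thy1- cells *Ehf* (2.01, limma adjusted p 0.0204), *Zfp750* (1.73, 0.045) and *Gata3* (1.21, 0.00414) were higher. Of the family relatives, *Tfap2b*, an AP-2 factor, had 989.7 ± 236 in HFSCs and was lower in Thy1hi (327 ± 71.9, −1.59, limma adjusted p 0.00129) and Thy1- cells (313 ± 97.9, −1.67, 0.00213). The 3 AP-2 genes thus did not share a direction, since *Tfap2a* and *Tfap2c* were not lower in either sort. In HFSC replicate 4 the summed basal keratins were 48410 (109139 or more in the others) and the summed Langerhans cell markers 73.6 (2391 or more in the others). The part of either in the low *Ovol1*, *Klf4* and *Cebpb* of that library was not tested.

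DETCs are T cells, and the comparison with them asks which of these factors mark the keratinocyte side. *Trp63* had 1739, 1338, 1799, 435 and 1374 normalized counts in DETC replicates 1, 2, 3, a and b and 3982 to 5848 in Thy1hi cells. *Tfap2a* had 429, 483, 447, 130.3 and 369.9 against 1028 to 1213. In both cases all DETC libraries were lower, and replicate a was the lowest. *Klf4* had 4210.2, 4396, 4788, 4754 and 3731 in DETCs and 3257 to 6026 in Thy1hi cells, and *Cebpb* had 1729.9, 1782, 1727, 1506 and 1787 against 895 to 1755. *Klf4* overlapped completely, and *Cebpb* lay in the upper part of the Thy1hi range or above it.

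Of the 10 members, 6 were called higher in Thy1hi cells than in DETCs and none lower, beside 16.6% of all genes called higher and 36.6% called in either direction. They were *Klf5* (4.89-fold, log2 difference 2.29, limma adjusted p 2.02e-05), *Trp63* (3.92-fold, 1.97, 2.43e-05), *Ovol1* (3.66-fold, 1.87, 0.00903), *Tfap2c* (3.25-fold, 1.70, 0.000495), *Tfap2a* (3.24-fold, 1.70, 7.61e-05) and *Grhl1* (2.43-fold, 1.28, 0.00785). The libraries of 5 of them did not overlap (33.2% of all genes), with an exact permutation p of 0.0159, where the smallest possible with 4 against 5 libraries is 0.0159. *Ovol1* overlapped, since DETC replicate b had 1039. *Grhl3* (0.91, limma adjusted p 0.0582) and *Cebpa* (0.76, 0.216) were not called, and neither were *Klf4* (0.01, standard error 0.29, 0.98) and *Cebpb* (−0.53, 0.462). Without DETC replicate a the same 6 were called. Without HFSC replicate 4 *Grhl3* (0.045) and *Cebpb* (0.0226) were called as well, at unchanged differences, since that library enters only through the shared spread. The shares of all genes called in these fits are not given here. Thy1- cells gave a wider result: 8 of 10 members were called higher than in DETCs, beside 34.1% of all genes called in either direction. They included *Grhl3* (1.69, limma adjusted p 0.00114) and *Cebpa* (1.47, 0.0169), but not *Klf4* (−0.03, 0.944) or *Cebpb* (−0.38, 0.607).

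Keratinocyte RNA was present in the DETC libraries, and the factors were read against it. *Krt5* stood at 24.5%, 15.6%, 20.3%, 4.83% and 17.6% of its Thy1hi mean in DETC replicates 1, 2, 3, a and b, and *Krt14* at 21.9%, 15.1%, 17.2%, 4.41% and 19.3%. *Trp63* stood at 36.5%, 28.1%, 37.8%, 9.14% and 28.9%, so that it was lowest in the library with the least keratin. *Klf4* stood at 92.9%, 97.0%, 106%, 105% and 82.3% and *Cebpb* at 141%, 145.5%, 141%, 123% and 146%, with little change in replicate a. The 8 other members were lowest in replicate a, between 7.97% and 17.9% of the Thy1hi mean. How much of their level came with keratinocyte RNA was not tested. For *Cebpb*, an exon of *Tmem189* on the opposite strand overlaps the gene. *Tmem189* had 904 to 1906 normalized counts in DETCs and at most 102 in the 15 other libraries, and whether counting used the strand is not stated, so reads of these genes in the shared stretch cannot be told apart.

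**Figure D4:**
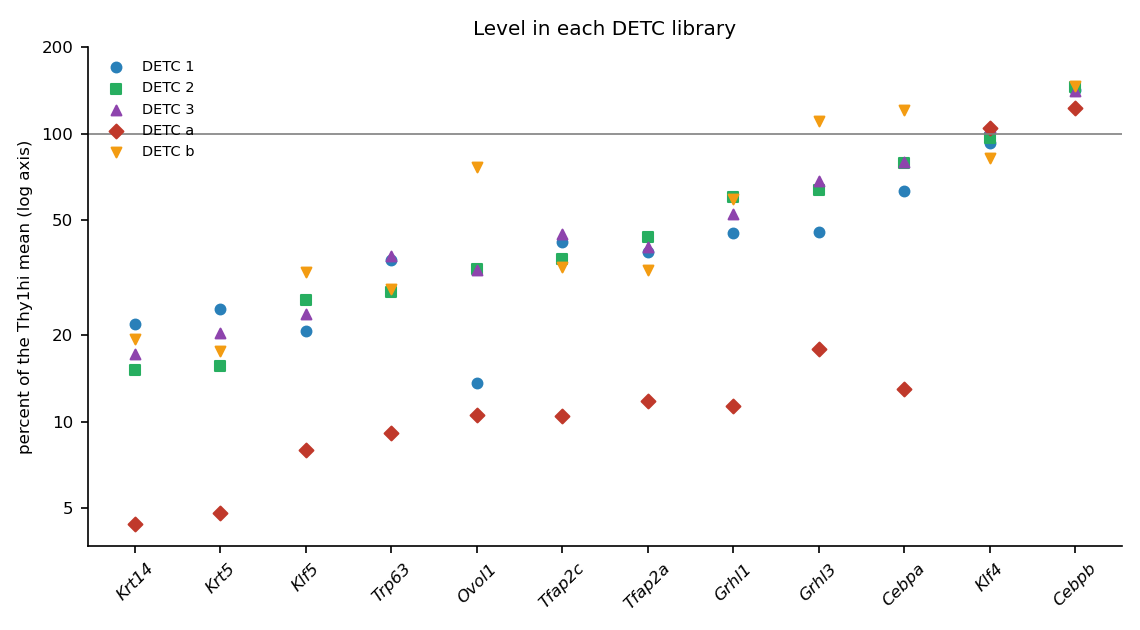
Level of the 10 factors, *Krt5* and *Krt14* in each DETC library as percent of the Thy1hi mean (log axis, grey line at 100%), sorted by their median. DETC a (red diamonds) lies at 4.41% for *Krt14* and between 7.97% and 17.9% for 8 factors, but at 105% for *Klf4* and 123% for *Cebpb*.

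In the same comparison 11 of 22 other epidermal factors were called higher and 1 lower (median 0.68, beside 0.00 over all genes). Among the higher ones were *Bnc1* (2.26) and *Dlx5* (1.95), and the lower one was *Runx1* (−0.82), which also acts in T cells. Of the relatives, 8 of 20 were higher, led by *Trp73* (2.30), *Grhl2* (1.71) and *Tfap2e* (1.48), and *Klf12* (−1.67) and *Klf13* (−1.05) were lower. Of the structural lists, 9 of 10 basal genes and 2 of 18 differentiation genes were higher.

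YFP cells had been labelled through *Thy1* and were compared with both keratinocyte sorts. No member was called by limma against Thy1hi cells, beside 0.0116% of all genes, nor against Thy1- cells, beside 0.761%. An unadjusted limma p under 0.05 was found for 0 and 1 members. By edgeR and DESeq2 0 members were called (0.0116% and 0.657% of all genes against Thy1hi, 0.796% and 3.27% against Thy1- cells). *Ovol1* had 546, 783 and 687 in YFP cells, below every Thy1hi library (834 to 1765) and every Thy1- library (1088 to 1855). Its difference was −0.97 from Thy1hi (limma adjusted p 0.679) and −1.13 from Thy1- cells (0.44). *Klf5*, at 3166, 2952 and 4033, lay below every Thy1hi library (−0.57, limma adjusted p 0.708) and within the Thy1- range. *Grhl3*, at 604, 845 and 409, lay below every Thy1- library (−0.93, limma adjusted p 0.328) and overlapped the Thy1hi range (−0.15). In each comparison 2 members did not overlap, beside 10.5% and 13.6% of all genes, and 3 against 4 libraries cannot give an exact p below 0.0571. Among 4 further lists no gene was called in either comparison. The differentiation genes had a median of 1.11 against Thy1hi cells, with 17 of 18 higher in YFP cells. Their sum was 71694, 55807 and 22760 in YFP replicates 1 to 3 and 12969 to 37463 in Thy1hi cells, so that the third YFP library lay within the Thy1hi range. In the same comparison 6 of 6 fibroblast markers were lower (median −2.16) and 3 of 3 sebocyte markers tested were higher (median 1.58). The summed sebocyte markers were 1092, 160 and 48.55 in YFP replicates 1 to 3 and 39.7 to 175 in Thy1hi cells. Only YFP replicate 1 lay above that range. The summed fibroblast markers were 71.8, 218 and 44.6 against 186 to 1946, so that YFP replicate 2 lay within the Thy1hi range. The part of either list in the result was not tested.

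Relatives within a family were also set against each other inside each library, where the ratio does not depend on the size factor. They are ratios of reads, not per kilobase, so they are compared between populations and do not rank the relatives. These ratios were chosen after the values were seen. *Klf5* reads were 0.69 to 1.52 times those of *Klf4* in Thy1hi, 0.51 to 1.49 times in Thy1-, 0.57 to 1.08 times in YFP, 0.25 to 0.35 times in HFSC and 0.084 to 0.45 times in DETC libraries. The ratio in every HFSC library, replicate 4 included, was thus below that in every Thy1hi and Thy1- library (log2 difference 1.98 and 1.63, exact permutation p 0.0286 each, Benjamini-Hochberg adjusted over 24 ratio tests 0.171). *Cebpa* reads were 0.57 to 0.89 times those of *Cebpb* in Thy1hi and 0.070 to 0.55 times in DETC libraries (1.29, exact permutation p 0.0159, adjusted 0.171). No ratio test was below 0.05 after adjustment. The ratios of *Grhl3* to *Grhl1* and of *Tfap2c* to *Tfap2a* overlapped between all populations compared.

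**Figure D5:**
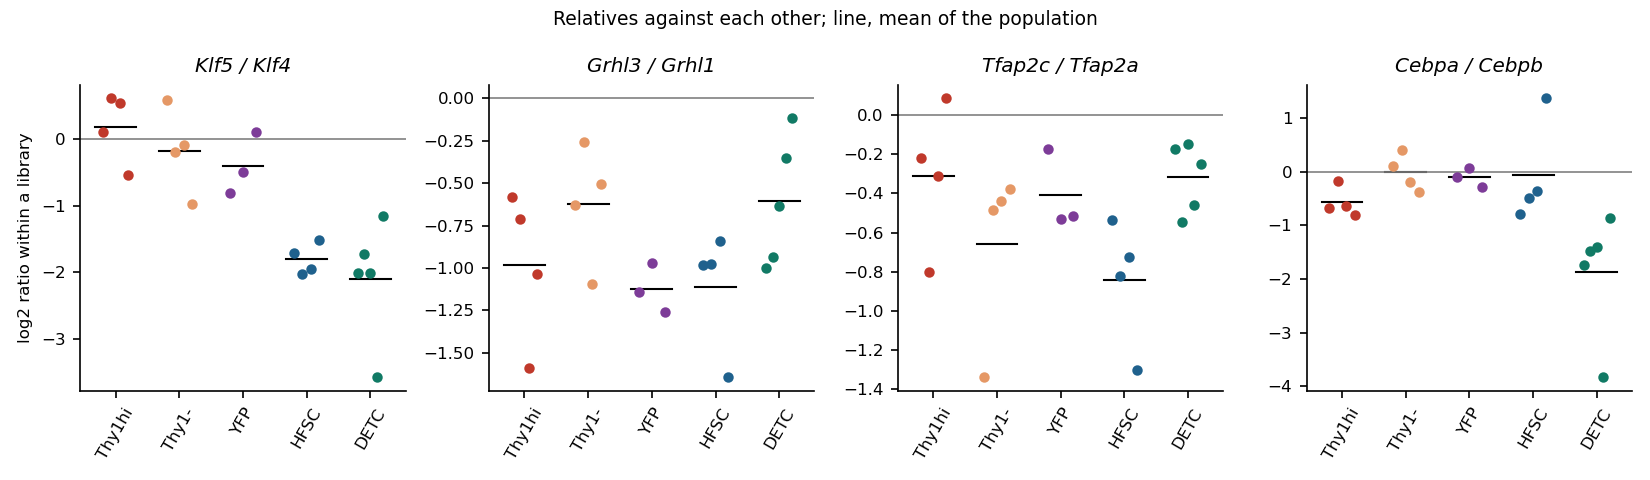
Log2 ratio of normalized counts of 2 relatives in each library (*Klf5* to *Klf4*, *Grhl3* to *Grhl1*, *Tfap2c* to *Tfap2a*, *Cebpa* to *Cebpb*), one point per library, with a line at the mean of each population and a grey line at 0. The *Klf5* to *Klf4* ratio has means of 0.18 in Thy1hi, −0.18 in Thy1-, −0.40 in YFP, −1.80 in HFSC and −2.10 in DETC libraries.

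Over the 20 libraries the members fell into patterns of their own, given here as correlations of log2 values without a p, since the libraries share populations. *Tfap2a* and *Tfap2c* (r = 0.908), *Grhl1* and *Tfap2a* (0.903), *Trp63* and *Tfap2a* (0.899) and *Grhl3* and *Cebpa* (0.891) were the closest pairs. *Klf4* and *Cebpb* went with each other (0.782) and not with *Trp63* (−0.005 and −0.34). Around the population means, the correlation of *Klf4* with *Cebpb* was 0.925. HFSC replicate 4 weighs on this pair, and without it the correlation of levels fell to 0.476 over 19 libraries. The genes most like each member were *Axl*, *Sh3d19* and *Grhl2* for *Trp63* (0.974 to 0.981), *Zfp750*, *Itpkc* and *Rhov* for *Ovol1* (0.96 to 0.976), *Ptges*, *Trim47* and *Gpc1* for *Klf5* (0.965 to 0.967) and *Lima1*, *Serpinb5* and *Perp* for *Tfap2a* (0.968 to 0.978). For *Tfap2c* they included *Pqlc1* and *Pkp1* (0.968 and 0.966), for *Grhl1* *Epha4*, *Ifnlr1* and *Ctnnd1* (0.959 to 0.967), for *Grhl3* *Spint1*, *Erbb3* and *Ocln* (0.924 to 0.933) and for *Cebpa* *Tmprss13*, *Ifi30* and *Hcar2* (0.926 to 0.945). By this measure *Klf4* was nearest to *Jund*, *Fos* and *Klf16* (0.874 to 0.903) and *Cebpb* to *Junb*, *Mafk* and *Midn* (0.948 to 0.955). These values rest in part on HFSC replicate 4, in which all 6 genes were low (*Fos* 399.4 against 12340 or more in the other HFSC libraries, *Junb* 168 against 3049 or more), and without it they were 0.734 to 0.814 and 0.597 to 0.715. By Spearman's rank correlation only *Jund* stayed among the 3 nearest genes, for *Klf4* (0.856). *Jund*, *Fos* and *Junb* encode subunits of AP-1, a factor of the immediate early response.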

How the data were processed

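RNA-seq libraries of 20 samples in 5 sorted populations were analysed. According to the paper and the submitters' processing notes the authors aligned reads with STAR to mm10, counted them per gene with featureCounts and normalized with DESeq2; versions, the strand used in counting and which of 2 library kits and batches each sample had are not given in the sources used here. The deposited values are a signal, normalized counts with 2 decimals; dividing out each library's step gave whole reads for at least 99.995% of values (tolerance 0.1). In the column of Thy1- replicate 4 the values of 3212 genes followed a sorting of names without their hyphens and were returned to their rows (r with the other Thy1- libraries over 1132 expressed genes 0.0506 before and 0.9335 after); none belonged to the 10 members. DETC columns with a number no label has, 2 in all, are named a and b.

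Genes with at least 10 normalized counts in at least 3 libraries (17204) were tested with limma 3.58.1 (R 4.3.3), with trend, on log2(value + 1), a scale that understates changes of low genes. All libraries entered one fit with a mean per population; p-values were two-sided, Benjamini-Hochberg adjusted over all genes, and called under 0.05. Exact two-sided permutation tests over libraries (scipy 1.17.1) stand beside. The alternatives were other pseudocounts, filters, scalings, edgeR 4.0.16, DESeq2 1.42.0, a replicate block and single libraries left out; the blocked edgeR fit, the block without each number, the block of HFSC and DETC libraries, the settings for single steps and the likeness without HFSC replicate 4 were chosen after seeing the data. On the recovered whole reads edgeR called 54 genes and DESeq2 210 between Thy1hi and Thy1- cells, beside 58 with limma. Fits were tested on simulated data. Same-numbered Thy1hi and Thy1- libraries deviated together (r 0.293 to 0.716 over the 4 pairs, against −0.651 to 0.514 for differently numbered ones), and the number was taken to pair them. HFSC and DETC libraries had r 0.17 to 0.333 in the 3 numbered pairs (−0.318 to 0.371 in the others). DETC and YFP libraries had r 0.0129 to 0.14 in the 3 numbered pairs (−0.0964 to 0.0837 in the others). For every other pair of populations the lowest r of same-numbered libraries was negative. Named were the members, and from other lists up to 3 genes called in each direction with the largest differences; some of these are not reported here. Members and lists were chosen with earlier results of these data known. Promoters are from RefSeq (GRCm38.p6). Libraries held 7781256 to 12982393 reads on genes, and reads without molecular identifiers are not independent molecules.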

Additional observations from a re-analysis of the deposited data

Results flagged for a closer look

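In groups of 4 or 5 libraries, 40 groups of member values were examined for a library far from the others, and 2 had one, where chance sets apart about 1 in 20. *Klf4* in HFSC replicate 4 had 1839 normalized counts, against 5893 to 6317 in the other HFSC libraries, a gap of 0.905 of the whole range. *Cebpb* in DETC replicate a had 1506.5, against 1727 to 1787 in the other DETC libraries, a gap of 0.784 of the range.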

How the results depend on the processing

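With the replicate block fitted to the Thy1hi and Thy1- libraries alone, 2 members were called by limma and 2 by edgeR, against 0 without it, and 2 to 3 when a number was left out. The block over all populations called 5 members between Thy1- cells and HFSCs and 2 between YFP and Thy1- cells, *Grhl3* (−1.08) and *Ovol1* (−1.49), and 0 between Thy1hi and Thy1- cells. The share of all genes called with this block is not given here, so these counts are not set against it. Between Thy1hi cells and HFSCs edgeR, edgeR with TMM scaling and a fit of these populations alone called 1 member each, beside 14.6%, 14.5% and 10.7% of all genes. Between Thy1- cells and HFSCs 1 was called without the filter on low values (beside 1.7% of the 43619 genes then tested) and 1 with TMM scaling (beside 7.49% of all genes). Leaving out 1 library in turn, or 1 replicate number from the blocked fit, gave 0 to 3 members between Thy1hi and Thy1- cells (0 without the block), 1 to 3 between Thy1hi cells and HFSCs, 0 to 5 between Thy1- cells and HFSCs, 6 to 8 between Thy1hi cells and DETCs, and 0 for YFP against Thy1hi or Thy1- cells. The shares of all genes called in these fits are not given here, so these counts are not set against them. Of the steps between neighbouring populations, *Klf5* from YFP cells to HFSCs lost its call under 4 of 33 settings (adjusted p up to 0.127) and *Grhl1* from HFSCs to DETCs under 18 of 35 (up to 0.119); *Trp63* and *Tfap2a* lost theirs under none.

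The lowest and highest log2 differences with 1 library left out, for results that turned direction, were as follows. Between Thy1hi and Thy1- cells *Klf4* ran from −0.10 to 0.20, *Ovol1* from −0.30 to 0.0595 and *Tfap2a* from −0.19 to 0.0556 (with the block, *Klf4* was −0.0643 and *Tfap2a* 0.0883 without number 1). Between Thy1hi cells and HFSCs *Cebpa* ran from −0.28 to 0.34, *Cebpb* from −0.26 to 0.99 and *Klf4* from −0.48 to 0.12, and between Thy1- cells and HFSCs *Cebpb* from −0.11 to 1.14 and *Klf4* from −0.53 to 0.0671. *Klf4* ran from −0.14 to 0.16 between Thy1hi cells and DETCs. Between YFP and Thy1hi cells *Cebpb* ran from −0.29 to 0.0316, *Grhl1* from −0.18 to 0.20, *Grhl3* from −0.40 to 0.12 and *Klf4* from −0.15 to 0.16, and between YFP and Thy1- cells *Klf4* from −0.11 to 0.21, *Klf5* from −0.30 to 0.0397 and *Tfap2c* from −0.0316 to 0.16.

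Of 800 values under other settings, 753 kept direction and side of the threshold, 7 lost a call, 23 gained one and 17 turned direction. With 1 library left out, or 1 replicate number left out of the blocked fit, these were 1179, 10, 18 and 33 of 1240. The calls gained in those blocked fits were of *Grhl3*, *Cebpa* and *Klf5*. The cause of these changes was not tested. Most of these results were not called over all libraries, so they had no call to lose. In the unblocked fit, leaving out a library of a population outside the comparison changes only the shared spread, not the difference. The kept values were thus largely fixed in advance and are not a measure of stability. With rescaled totals *Klf4* turned to −0.0759 (Thy1hi and Thy1-), 0.0516 (Thy1hi and HFSC), 0.13 (Thy1- and HFSC) and −0.0309 (YFP and Thy1-), *Trp63* to 0.0362 (Thy1- and HFSC), *Grhl1* to 0.0388 (YFP and Thy1hi) and *Tfap2c* to −0.0215 (YFP and Thy1-). With quantile normalization *Klf4* turned to −0.0396 (Thy1hi and Thy1-), *Trp63* to −0.0215 (Thy1hi and HFSC) and *Grhl1* to 0.10 (YFP and Thy1hi). Between YFP and Thy1hi cells *Klf4* turned to −0.017 with edgeR, −0.012 with TMM scaling, −0.018 with DESeq2 and −0.0383 with the block over all populations. *Cebpa* turned to −0.00064 between Thy1hi cells and HFSCs with TMM scaling. With both keratinocyte libraries numbered 4 left out, *Klf4* turned to −0.14 between Thy1hi cells and DETCs and *Cebpb* to 0.0316 between YFP and Thy1hi cells. None of these values was called.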
